A study of Mus musculus with 40 samples.

Results

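The p53 target genes other than the cell cycle inhibitor p21 and the main apoptosis genes were followed through all 40 RNA-seq libraries of prepubertal mouse uterus. They are 34 genes, named one by one: Trp53 itself, which encodes p53, and 33 genes reported as its targets. All 34 were found once each by gene symbol among the 54532 genes of the deposited table, and all 34 passed the filter of 1 FPKM or more in at least 5 libraries that left 16226 genes for testing. FPKM count fragments relative to gene length and to the library's total. The genes were chosen by name and not by their values, but with earlier results of these data known.

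The study dosed mice on postnatal day 25 and took uteri 4 h or 24 h after treatment, in 8 groups of 5 libraries. At each time the groups were doxorubicin (3 mg/kg), doxorubicin (3 mg/kg) with AMH (0.75 mg/kg), AMH (0.75 mg/kg) alone, and controls on PBS or saline, called vehicle here. In both groups with doxorubicin it was given as 2 weekly doses per the series description. The dose from which the 4 h and 24 h were counted is not stated here. Doxorubicin is an anthracycline that traps topoisomerase II and breaks DNA, and anti-Müllerian hormone (AMH) is a hormone of the TGF-beta family. The strain is not given in the sources used here. The libraries are numbered as biological replicates, without a statement that each was a single mouse, so p-values measure the spread between these libraries. RNA was taken from whole tissue, and fewer cells of a type cannot be told apart from less RNA per cell.

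In unstressed cells p53 is kept low by Mdm2, a ubiquitin ligase that is itself a p53 target. DNA breaks activate kinases that free p53 from Mdm2, and p53 then binds DNA as a tetramer and raises transcription of genes that restrain its own activity, slow metabolism and growth, repair DNA or bring about cell death. p53 is controlled mainly as a protein, so that the level of Trp53 RNA need not follow its activity.

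All 10 uterus markers were found in every library. The oestrogen receptor gene Esr1 was at 36.2 to 52.9 FPKM. Others varied more, such as Msx1 at 28.9 to 125 FPKM and Amhr2 at 1.08 to 9.44 FPKM. These markers do not exclude other tissue in a library. The libraries held between 16251563 and 27391049 reads in genes, a depth worked back from the smallest steps in their FPKM. In 8 libraries markers of oviduct and ciliated cells stood over 1 log2 unit above the median of all libraries: libraries 3 and 4 of doxorubicin, 5 of doxorubicin with AMH and 4 of vehicle at 4 h, and libraries 3, 4 and 5 of doxorubicin and 4 of doxorubicin with AMH at 24 h. Of the 14 markers 13 were in the table, and the defining Ovgp1 reached 790 FPKM against a median of 1.87. In 7 libraries oestrogen-responsive genes stood over 0.6 log2 units above the median: library 2 of doxorubicin at 4 h, and at 24 h libraries 1 and 4 of doxorubicin, 3 of AMH and 1, 2 and 4 of vehicle. Counts without these libraries are given beside the results they move.

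A p53 response element was found in the promoter windows of 4 members, and these are printed because the same 4 genes were among those higher with doxorubicin at 4 h. The windows run from 250 bases before to 50 bases after the annotated start (RefSeq, build GRCm38.p6, which is mm10), and 29 of the 34 members have one. The element is a pair of adjacent half-sites of 10 bases, and up to 2 mismatches of 20 were allowed outside the fixed C and G of each half-site. The pattern reads the same on both strands. The capitals mark the match.

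Ccng1: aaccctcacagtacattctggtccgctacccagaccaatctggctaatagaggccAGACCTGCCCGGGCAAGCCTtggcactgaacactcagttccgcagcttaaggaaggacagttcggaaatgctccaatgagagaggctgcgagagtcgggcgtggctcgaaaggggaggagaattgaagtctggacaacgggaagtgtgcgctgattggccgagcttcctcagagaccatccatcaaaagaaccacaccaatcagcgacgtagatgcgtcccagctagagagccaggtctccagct
Gtse1: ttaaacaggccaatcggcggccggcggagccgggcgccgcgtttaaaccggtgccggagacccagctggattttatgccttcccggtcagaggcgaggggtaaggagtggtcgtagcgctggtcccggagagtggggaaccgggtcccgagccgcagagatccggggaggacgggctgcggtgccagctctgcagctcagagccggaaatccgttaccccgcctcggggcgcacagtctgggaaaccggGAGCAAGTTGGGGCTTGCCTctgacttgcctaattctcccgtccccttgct
Ckap2: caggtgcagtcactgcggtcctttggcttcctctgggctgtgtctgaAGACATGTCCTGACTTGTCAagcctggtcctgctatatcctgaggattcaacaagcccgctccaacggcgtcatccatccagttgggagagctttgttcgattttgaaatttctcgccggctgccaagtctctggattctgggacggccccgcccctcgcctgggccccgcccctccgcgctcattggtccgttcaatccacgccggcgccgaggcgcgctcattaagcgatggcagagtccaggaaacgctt
Zfp365: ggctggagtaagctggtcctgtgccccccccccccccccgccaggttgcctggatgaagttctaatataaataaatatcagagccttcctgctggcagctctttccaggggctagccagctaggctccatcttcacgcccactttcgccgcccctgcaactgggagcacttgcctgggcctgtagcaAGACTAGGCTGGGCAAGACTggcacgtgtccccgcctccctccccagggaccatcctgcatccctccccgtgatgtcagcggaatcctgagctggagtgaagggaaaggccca

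The Ccng1 window is chr11:40755237-40755536 on the minus strand, and its match begins 195 bases before the start with 1 mismatch. The Gtse1 window is chr15:85859696-85859995 on the plus strand, and its match begins 1 base before the start with 1 mismatch. Ckap2 (chr8:22185770-22186069, minus strand) and Zfp365 (chr10:67912613-67912912, minus strand) have matches with 2 mismatches that begin 203 and 63 bases before the start. Such a match lies in 4 of 29 members, which is 13.8%, and in 106 of all 27018 genes with a window, which is 0.392%. A match in letters is a description and not a shown binding site, and the other 25 members have none of these letters in this window.

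Doxorubicin raised 15 of the 34 genes at 4 h and lowered none (limma, Benjamini-Hochberg adjusted p under 0.05), where 0.388% of all tested genes rose and 0.105% fell. At 24 h it raised 18 and lowered 1, Trp53, where 8.44% of all genes rose and 9.95% fell. The genes that rose at both times were 12: Ccng1, Eda2r, Ephx1, Gdf15, Mdm2, Phlda3, Polk, Psrc1, Sesn2, Slc19a2, Trp53inp1 and Zfp365. The median log2 change of the 34 was 0.68 at 4 h and 0.48 at 24 h, against 0.01 and -0.01 over all genes. The vehicle and doxorubicin libraries did not overlap, doxorubicin being higher, for 16 members at 4 h (1.76% of all genes) and for 10 at 24 h (1.92%).

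**Figure D1:**
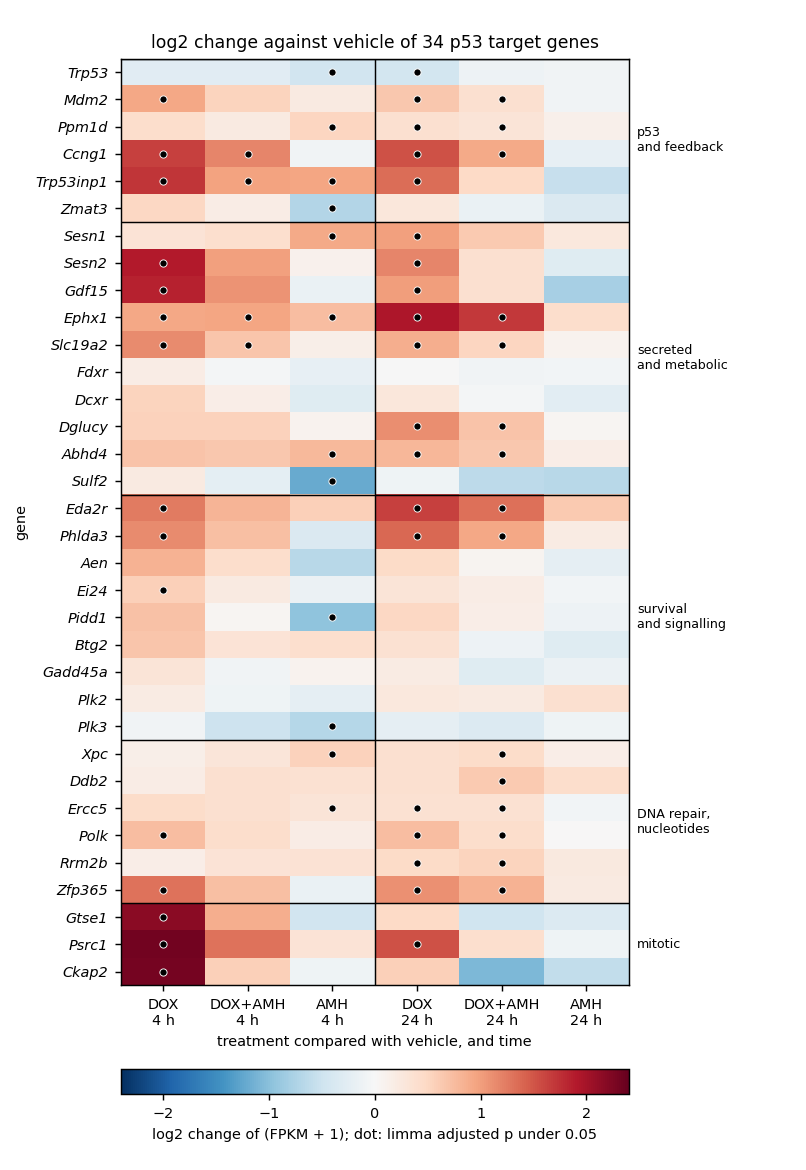
Each cell is the limma log2 change of (FPKM + 1) against vehicle of 1 gene (rows, by role) in 1 comparison (columns: DOX is doxorubicin, then doxorubicin with AMH, then AMH alone, at 4 h and at 24 h; 5 libraries a group). Dots mark adjusted p under 0.05: 15 of 34 for doxorubicin at 4 h and 19 at 24 h.

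At 24 h smooth muscle markers moved with doxorubicin as well: 10 of 10 fell, with a median log2 change of -0.71, and their mean log2(FPKM + 1) was 6.30 to 6.95 with doxorubicin and 7.26 to 7.74 with vehicle. At 4 h 1 of the 10, Mylk, fell. The part of smooth muscle in the p53 target levels was not tested. Without library 2 of doxorubicin the 4 h count was 9 (0.203% of all genes). Without library 3 of doxorubicin or library 3 of vehicle it was 10 (0.173% and 0.197%). Fitted on the compared groups alone, 5 members passed at 4 h and 3 at 24 h, where 0.0616% and 0.154% of all genes passed. Without the high-oestrogen libraries 10 passed at 24 h, where 0.382% of all genes passed.

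The first role group holds p53 and its feedback regulators. Trp53 (ENSMUSG00000059552, chr11:69580359-69591873 on mm10) was lower after doxorubicin at 24 h. At 4 h Trp53 was at 32.6, 31.7, 32.1, 35.6 and 43 FPKM with doxorubicin, 38.8, 41.2, 35.4, 33.5 and 26.7 FPKM with doxorubicin and AMH and 29.3, 33.7, 28.8, 32 and 28.2 FPKM with AMH alone, against 41, 44.1, 39.6, 44.2 and 42.3 FPKM with vehicle. At 24 h Trp53 was at 26.9, 22.2, 25.4, 23.1 and 38.5 FPKM with doxorubicin, 32.4, 30.4, 34.8, 39.8 and 32 FPKM with doxorubicin and AMH and 30.6, 34.6, 38.2, 33.4 and 35.9 FPKM with AMH alone, against 39.9, 32.4, 32.8, 44.1 and 36.1 FPKM with vehicle. At 24 h 4 of the 5 doxorubicin libraries lay below every vehicle library, and library 5 lay among them (log2 change -0.45 ± 0.12 SE, adjusted p = 0.01 by limma). The log2 change at 4 h was -0.27 ± 0.12 (SE, adjusted p = 0.33 by limma), and did not pass.

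Mdm2 (chr10:117688875-117710758), the ligase that marks p53 for degradation, rose with doxorubicin at both times. At 4 h Mdm2 was at 15.4, 24.7, 22.2, 11.1 and 19.4 FPKM with doxorubicin, 12.7, 12.5, 11.9, 14.5 and 15.3 FPKM with doxorubicin and AMH and 9.59, 11.1, 9.97, 10.7 and 11.2 FPKM with AMH alone, against 8.25, 7.16, 10.5, 9.1 and 10.1 FPKM with vehicle. At 24 h Mdm2 was at 12.8, 20.1, 21.5, 18 and 14.8 FPKM with doxorubicin, 11.5, 12.7, 16.3, 16.4 and 14.2 FPKM with doxorubicin and AMH and 12.8, 10.1, 8.53, 8.8 and 9.92 FPKM with AMH alone, against 12.1, 9.37, 9.81, 10.9 and 11.1 FPKM with vehicle. All doxorubicin libraries were above all vehicle libraries at each time. The means were 18.6 ± 5.40 FPKM with doxorubicin and 9.02 ± 1.36 FPKM with vehicle at 4 h (SD, n = 5), a log2 change of 0.93 ± 0.15 (SE, adjusted p = 0.00049 by limma). The log2 change at 24 h was 0.64 ± 0.15 (SE, adjusted p = 0.0052 by limma).

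Ccng1 (chr11:40748552-40755311) encodes cyclin G1, which helps activate Mdm2. At 4 h Ccng1 was at 79.8, 117, 83.7, 33.1 and 93.3 FPKM with doxorubicin, 67, 55, 40.1, 54.3 and 57.9 FPKM with doxorubicin and AMH and 22.9, 24.5, 22.5, 21.7 and 19.1 FPKM with AMH alone, against 29.9, 23.4, 19.7, 25.6 and 20.4 FPKM with vehicle. At 24 h Ccng1 was at 44.6, 111, 97.6, 80.8 and 78.9 FPKM with doxorubicin, 35.6, 39.4, 63.6, 75.7 and 50.2 FPKM with doxorubicin and AMH and 21.4, 25.1, 21.4, 24.9 and 22.6 FPKM with AMH alone, against 29.7, 26.7, 26.1, 27.9 and 23.3 FPKM with vehicle. No doxorubicin library overlapped vehicle, and library 4 at 4 h was far below the other 4. The level was 3.42 times vehicle at 4 h (log2 change 1.64 ± 0.22 SE, adjusted p = 4.4e-05 by limma) and 3.09 times at 24 h (log2 change 1.53 ± 0.22 SE, adjusted p = 4.5e-05 by limma).

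Trp53inp1, a nuclear protein that promotes p53-dependent death and autophagy, also rose at both times. At 4 h Trp53inp1 was at 37.5, 47.1, 33.3, 16.5 and 27.1 FPKM with doxorubicin, 23.3, 17, 13.4, 17.8 and 19.3 FPKM with doxorubicin and AMH and 20.3, 16.9, 19.2, 15.5 and 16.1 FPKM with AMH alone, against 10.1, 6.95, 9.56, 7.74 and 9.24 FPKM with vehicle. At 24 h Trp53inp1 was at 36, 50.6, 51.1, 48.6 and 28.2 FPKM with doxorubicin, 20.7, 20.2, 29.6, 22.2 and 21.6 FPKM with doxorubicin and AMH and 15.5, 9.93, 6.97, 8.91 and 13.1 FPKM with AMH alone, against 14.8, 25, 22.1, 10.5 and 11.6 FPKM with vehicle. The doxorubicin libraries were above all vehicle libraries, and at 4 h the AMH libraries were as well. The log2 changes with doxorubicin were 1.71 ± 0.22 (SE, adjusted p = 2.4e-05 by limma) at 4 h and 1.34 ± 0.22 (SE, adjusted p = 0.00024 by limma) at 24 h.

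Ppm1d, the phosphatase WIP1 that switches off p53 and the damage kinases, moved less. At 4 h Ppm1d was at 11.5, 10.8, 8.37, 7.06 and 8.47 FPKM with doxorubicin, 8.82, 8.01, 8.06, 6.18 and 7.58 FPKM with doxorubicin and AMH and 9.92, 9.39, 9.93, 9.22 and 10 FPKM with AMH alone, against 7.63, 6.0, 6.85, 5.18 and 7.06 FPKM with vehicle. At 24 h Ppm1d was at 8.48, 9.96, 10.4, 9.93 and 7.92 FPKM with doxorubicin, 9.72, 7.74, 11.6, 7.54 and 7.37 FPKM with doxorubicin and AMH and 8.05, 6.81, 7.03, 8.25 and 7.88 FPKM with AMH alone, against 5.33, 7.19, 8.15, 6.36 and 7.46 FPKM with vehicle. Doxorubicin and vehicle overlapped at both times, and at 4 h the AMH libraries lay together above all of vehicle. With doxorubicin the change passed at 24 h (log2 change 0.39 ± 0.12 SE, adjusted p = 0.023 by limma) and not at 4 h (log2 change 0.43 ± 0.12 SE, adjusted p = 0.09 by limma). The 24 h call was lost under 8 alternatives, while the 4 h change passed with array weights and without doxorubicin library 4. Zmat3, an RNA-binding target of p53, averaged 6.88 FPKM with doxorubicin and 4.46 FPKM with vehicle at 4 h and did not pass (log2 change 0.50 ± 0.17 SE, adjusted p = 0.22 by limma).

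**Figure D2:**
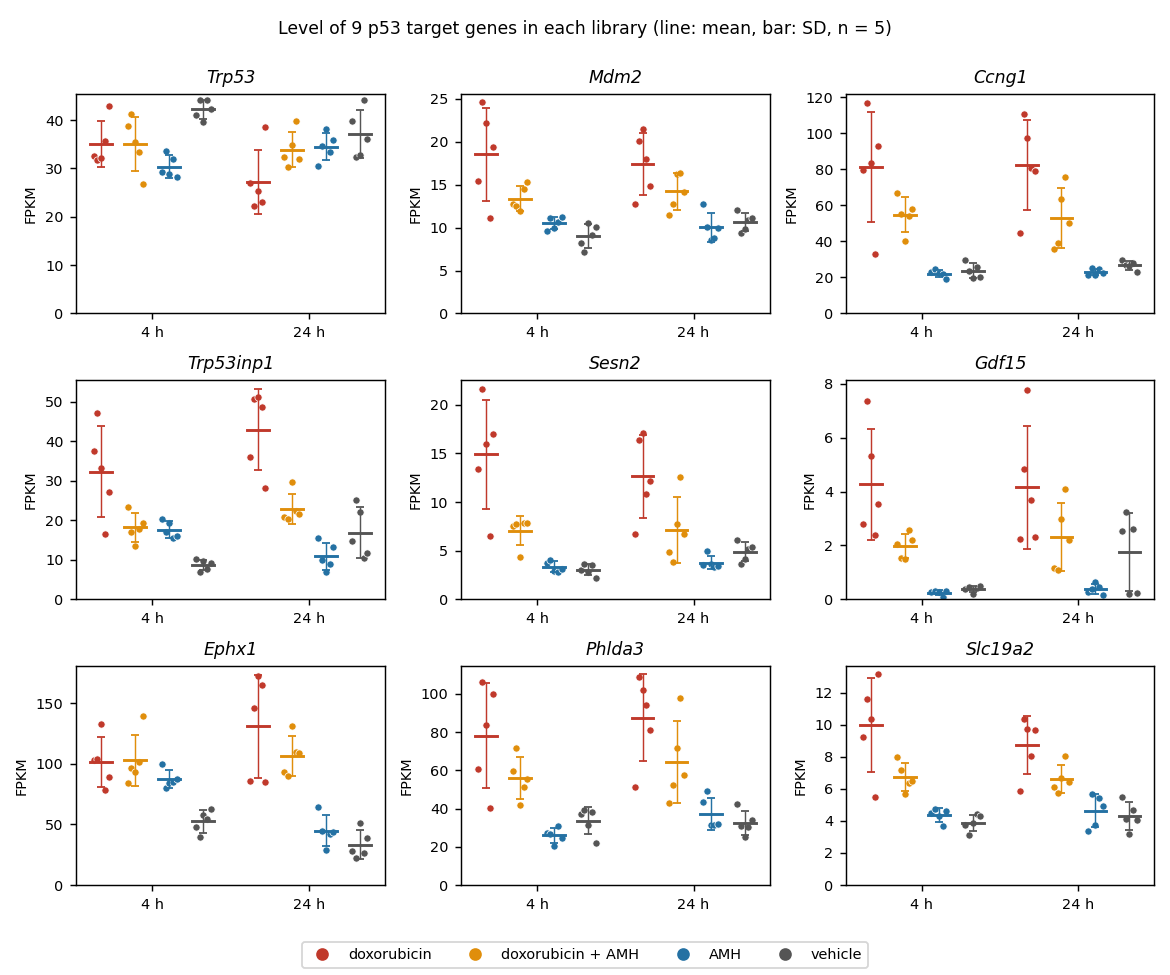
FPKM (vertical axis, from 0) of 9 of the genes in each of 40 libraries, with the group mean (line) and SD (bar, n = 5), for doxorubicin, doxorubicin with AMH, AMH and vehicle at 4 h and 24 h. For Sesn2 at 4 h the doxorubicin libraries span 6.47 to 21.6 and the vehicle libraries 2.22 to 3.67.

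The second group has secreted and metabolic proteins. Sesn2 (chr4:132492032-132510501) encodes a sestrin, a leucine sensor that restrains the growth kinase mTOR. At 4 h Sesn2 was at 13.4, 21.6, 16, 6.47 and 17 FPKM with doxorubicin, 7.49, 7.71, 4.38, 7.84 and 7.8 FPKM with doxorubicin and AMH and 3.73, 4.08, 2.94, 2.75 and 3.13 FPKM with AMH alone, against 2.99, 3.67, 2.84, 3.47 and 2.22 FPKM with vehicle. At 24 h Sesn2 was at 6.7, 16.4, 17.1, 10.8 and 12.2 FPKM with doxorubicin, 4.83, 3.82, 7.7, 12.6 and 6.69 FPKM with doxorubicin and AMH and 3.51, 4.97, 3.62, 3.29 and 3.42 FPKM with AMH alone, against 6.06, 3.63, 4.15, 5.15 and 5.36 FPKM with vehicle. Doxorubicin and vehicle did not overlap, and doxorubicin alone gave the highest library at each time. With doxorubicin the log2 changes were 1.90 ± 0.24 (SE, adjusted p = 1.6e-05 by limma) at 4 h, 4.90 times the vehicle mean, and 1.17 ± 0.24 (SE, adjusted p = 0.002 by limma) at 24 h. The gene Gm12981 shares 6089 bases with Sesn2 on the same strand and reached 2.02 FPKM at most, so some reads could have been split between them.

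Sesn1, the other sestrin gene here, behaved otherwise. At 4 h Sesn1 was at 24.1, 17.9, 13.1, 18.8 and 15.7 FPKM with doxorubicin, 23.4, 19.4, 18, 13.1 and 20.3 FPKM with doxorubicin and AMH and 25.2, 26.5, 29, 27.3 and 26.4 FPKM with AMH alone, against 13.4, 13.2, 13.4, 12.3 and 17 FPKM with vehicle. At 24 h Sesn1 was at 26.9, 36.1, 27.1, 29.6 and 16.9 FPKM with doxorubicin, 24.9, 22.8, 23.6, 13 and 20.1 FPKM with doxorubicin and AMH and 29.5, 12.7, 7.26, 16.1 and 21.1 FPKM with AMH alone, against 8.89, 7.89, 35.4, 8.59 and 16.2 FPKM with vehicle. At 4 h the AMH libraries were the highest, and at 24 h vehicle library 3 was above 4 of the 5 doxorubicin libraries. With doxorubicin only the 24 h change passed (log2 change 0.98 ± 0.28 SE, adjusted p = 0.019 by limma).

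Gdf15 (chr8:70629393-70632456), a secreted stress cytokine of the TGF-beta family, was low in vehicle uteri at 4 h and rose with doxorubicin at both times. At 4 h Gdf15 was at 2.79, 7.35, 5.33, 2.37 and 3.54 FPKM with doxorubicin, 2.06, 1.52, 1.51, 2.56 and 2.2 FPKM with doxorubicin and AMH and 0.267, 0.29, 0.254, 0.0921 and 0.321 FPKM with AMH alone, against 0.397, 0.467, 0.206, 0.428 and 0.473 FPKM with vehicle. At 24 h Gdf15 was at 2.22, 4.84, 7.77, 3.68 and 2.3 FPKM with doxorubicin, 1.17, 1.08, 2.99, 4.11 and 2.2 FPKM with doxorubicin and AMH and 0.272, 0.382, 0.657, 0.453 and 0.151 FPKM with AMH alone, against 2.52, 3.24, 0.187, 2.6 and 0.225 FPKM with vehicle. At 4 h every doxorubicin library, with or without AMH, was above every vehicle library, while at 24 h vehicle libraries 1, 2 and 4 were at 2.52 FPKM or more. These 3 are the vehicle libraries with high oestrogen-responsive genes, and the part of oestrogen in the result was not tested. Doxorubicin gave log2 changes of 1.84 ± 0.30 (SE, adjusted p = 0.00072 by limma) at 4 h and 1.00 ± 0.30 (SE, adjusted p = 0.022 by limma) at 24 h.

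Ephx1 (chr1:180976210-181020904), the microsomal epoxide hydrolase, had the highest 24 h change of all 34 on the log2(FPKM + 1) scale, while by ratio of means Zfp365, at 4.24 times vehicle, was above Ephx1, at 3.92 times. At 4 h Ephx1 was at 103, 104, 133, 77.9 and 88.7 FPKM with doxorubicin, 84, 96.2, 93.4, 101 and 139 FPKM with doxorubicin and AMH and 99.5, 79.7, 84.1, 85.1 and 87.4 FPKM with AMH alone, against 47.9, 39.3, 57.8, 54.2 and 62.9 FPKM with vehicle. At 24 h Ephx1 was at 85.7, 146, 172, 165 and 85.1 FPKM with doxorubicin, 93.5, 89.5, 131, 110 and 109 FPKM with doxorubicin and AMH and 64.7, 44.9, 28.5, 42 and 43.4 FPKM with AMH alone, against 28, 22.3, 51.3, 26.5 and 38.7 FPKM with vehicle. All groups with an agent lay above vehicle at 4 h, and at 24 h both doxorubicin groups did. The log2 change with doxorubicin was 0.93 ± 0.21 (SE, adjusted p = 0.026 by limma) at 4 h and 1.94 ± 0.21 (SE, adjusted p = 8.7e-07 by limma) at 24 h, where the mean was 131 ± 42.5 FPKM with doxorubicin and 33.3 ± 11.7 FPKM with vehicle (SD, n = 5). The 4 h call was lost under 10 alternatives. The 24 h change was larger by 1.00 ± 0.29 (SE), with an unadjusted p of 0.0016 from limma and an adjusted p of 0.49.

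Slc19a2, a thiamine transporter, was raised at both times. At 4 h Slc19a2 was at 9.27, 11.6, 10.4, 5.48 and 13.2 FPKM with doxorubicin, 7.98, 7.17, 5.66, 6.38 and 6.47 FPKM with doxorubicin and AMH and 4.51, 4.73, 4.34, 3.69 and 4.61 FPKM with AMH alone, against 3.75, 3.1, 3.86, 4.41 and 4.28 FPKM with vehicle. At 24 h Slc19a2 was at 5.89, 10.4, 9.74, 8.08 and 9.69 FPKM with doxorubicin, 6.14, 5.73, 6.71, 8.03 and 6.41 FPKM with doxorubicin and AMH and 3.38, 5.7, 3.74, 5.46 and 4.91 FPKM with AMH alone, against 5.52, 4.12, 3.2, 4.67 and 4.08 FPKM with vehicle. Doxorubicin was above vehicle in every library, as was doxorubicin with AMH. The log2 changes with doxorubicin were 1.13 ± 0.15 (SE, adjusted p = 4.4e-05 by limma) at 4 h and 0.87 ± 0.15 (SE, adjusted p = 0.00049 by limma) at 24 h.

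Dglucy, a mitochondrial D-glutamate cyclase, and Abhd4, a lipase of N-acyl phospholipids, passed at 24 h. At 4 h Dglucy was at 6.84, 5.11, 4.76, 4.28 and 4.25 FPKM with doxorubicin, 5.44, 4.9, 4.38, 4.46 and 5.6 FPKM with doxorubicin and AMH and 3.35, 2.94, 3.65, 3.11 and 3.5 FPKM with AMH alone, against 2.91, 2.85, 3.11, 2.69 and 3.84 FPKM with vehicle. At 24 h Dglucy was at 5.48, 8.82, 10.9, 6.63 and 4.6 FPKM with doxorubicin, 4.0, 4.45, 6.7, 4.88 and 5.22 FPKM with doxorubicin and AMH and 2.88, 2.71, 2.88, 3.0 and 2.64 FPKM with AMH alone, against 2.36, 3.23, 3.53, 2.51 and 2.07 FPKM with vehicle. The 24 h log2 change of Dglucy was 1.11 ± 0.14 (SE, adjusted p = 1.2e-05 by limma). At 4 h Abhd4 was at 50.3, 50.9, 41.2, 33.2 and 34 FPKM with doxorubicin, 42.7, 36.9, 35.5, 40.6 and 43.3 FPKM with doxorubicin and AMH and 47.8, 39.9, 44.8, 45.2 and 41.9 FPKM with AMH alone, against 24.8, 20.5, 29.7, 23.5 and 28 FPKM with vehicle. At 24 h Abhd4 was at 50.6, 53.1, 53.7, 47.6 and 31 FPKM with doxorubicin, 47.5, 46.7, 47.8, 29.7 and 40.4 FPKM with doxorubicin and AMH and 45.8, 31.6, 17.3, 27.4 and 31.7 FPKM with AMH alone, against 23.3, 25.2, 37.4, 18.5 and 30.2 FPKM with vehicle. All 3 groups with an agent were above vehicle at 4 h, and at 24 h library 5 of doxorubicin overlapped vehicle (log2 change 0.80 ± 0.18 SE, adjusted p = 0.0052 by limma).

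Fdxr, the mitochondrial ferredoxin reductase, Dcxr, a carbonyl reductase, and Sulf2, an extracellular heparan sulfatase, did not pass with doxorubicin at either time. Their log2 changes with doxorubicin lay between -0.11 and 0.53. Dcxr was highest, at 168 FPKM, in doxorubicin library 3 at 4 h, and a vehicle library reached 130 FPKM at 24 h.

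The third group acts on survival, death and growth arrest. Phlda3 (chr1:135766119-135769136), which blocks the survival kinase Akt, rose at both times. At 4 h Phlda3 was at 60.5, 106, 83.9, 40.3 and 100 FPKM with doxorubicin, 59.9, 71.9, 42.1, 51.1 and 55.3 FPKM with doxorubicin and AMH and 27.4, 26.7, 20.4, 30.7 and 24.6 FPKM with AMH alone, against 36.9, 39.4, 31.5, 38.4 and 22.2 FPKM with vehicle. At 24 h Phlda3 was at 51.3, 109, 102, 94.3 and 81.1 FPKM with doxorubicin, 42.9, 52.2, 71.7, 97.9 and 57.8 FPKM with doxorubicin and AMH and 43.4, 49, 31.2, 31.4 and 31.7 FPKM with AMH alone, against 42.6, 30.8, 25.1, 30.2 and 33.9 FPKM with vehicle. Each doxorubicin library was above vehicle, and library 4 at 4 h and library 1 at 24 h were the lowest of their groups. The log2 changes with doxorubicin were 1.14 ± 0.23 (SE, adjusted p = 0.0098 by limma) at 4 h and 1.37 ± 0.23 (SE, adjusted p = 0.0002 by limma) at 24 h.

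Eda2r, a receptor of the TNF family for a form of ectodysplasin, also rose. At 4 h Eda2r was at 16.2, 15.6, 12.1, 7.42 and 18.1 FPKM with doxorubicin, 11.5, 10.9, 7.95, 9.06 and 9.63 FPKM with doxorubicin and AMH and 6.25, 10.1, 8.28, 8.39 and 7.84 FPKM with AMH alone, against 4.47, 4.45, 4.89, 4.66 and 7.25 FPKM with vehicle. At 24 h Eda2r was at 10.1, 17, 16.8, 10.5 and 13.6 FPKM with doxorubicin, 10.1, 8.3, 12.2, 12.3 and 10.3 FPKM with doxorubicin and AMH and 6.16, 7.12, 3.08, 5.3 and 10.7 FPKM with AMH alone, against 3.0, 0.914, 10.7, 2.15 and 6.24 FPKM with vehicle. The 4 h call of Eda2r was lost under 12 alternatives, among them a pseudocount of 0.1, no filter, leaving out the high-oviduct libraries and leaving out any of 8 single libraries. The groups were apart at 4 h, where vehicle library 5 stood nearest to doxorubicin, and overlapped at 24 h through vehicle library 3. With doxorubicin the log2 changes were 1.24 ± 0.30 (SE, adjusted p = 0.042 by limma) and 1.64 ± 0.30 (SE, adjusted p = 0.00056 by limma).

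Ei24, a membrane protein of the endoplasmic reticulum linked to autophagy, passed at 4 h. At 4 h Ei24 was at 34.8, 47.2, 37.5, 24.8 and 42.2 FPKM with doxorubicin, 33.3, 32, 22.6, 28.7 and 26.1 FPKM with doxorubicin and AMH and 22.6, 24.2, 19.8, 22.6 and 19.3 FPKM with AMH alone, against 26.4, 24.4, 23, 25.5 and 21.8 FPKM with vehicle. At 24 h Ei24 was at 24, 36.5, 34.6, 32.9 and 32.4 FPKM with doxorubicin, 26.6, 26.2, 31.8, 35.3 and 26.7 FPKM with doxorubicin and AMH and 24.7, 25.9, 26.6, 23.3 and 21.9 FPKM with AMH alone, against 29, 29.9, 22.6, 24.4 and 23.2 FPKM with vehicle. Doxorubicin library 4 lay among vehicle at 4 h (log2 change 0.58 ± 0.13 SE, adjusted p = 0.024 by limma). The 4 h call of Ei24 was lost under 7 alternatives. The other 6 of this group did not pass with doxorubicin at either time: Aen, a nuclease of apoptosis, Pidd1, a caspase-activating scaffold, Btg2 and Gadd45a, which slow growth, and the polo-like kinases Plk2 and Plk3. The doxorubicin libraries of Pidd1 were apart from vehicle at 4 h, with 3.41 to 6.32 FPKM against 2.21 to 3.25 FPKM (log2 change 0.70 ± 0.27 SE, adjusted p = 0.27 by limma).

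The fourth group repairs DNA or supplies nucleotides. Polk (chr13:96480690-96542579), a polymerase that copies past damaged bases, rose at both times. At 4 h Polk was at 6.27, 7.44, 5.43, 3.41 and 6.18 FPKM with doxorubicin, 4.85, 3.93, 3.5, 5.07 and 4.4 FPKM with doxorubicin and AMH and 3.11, 4.02, 3.46, 3.2 and 3.53 FPKM with AMH alone, against 2.32, 2.89, 3.58, 2.5 and 3.71 FPKM with vehicle. At 24 h Polk was at 3.92, 6.35, 5.97, 4.36 and 4.69 FPKM with doxorubicin, 3.32, 3.8, 4.75, 3.86 and 3.39 FPKM with doxorubicin and AMH and 2.13, 2.84, 1.94, 2.98 and 3.45 FPKM with AMH alone, against 2.27, 2.79, 3.18, 2.71 and 2.1 FPKM with vehicle. At 4 h doxorubicin library 4 overlapped vehicle, and at 24 h the groups were apart. Doxorubicin gave log2 changes of 0.74 ± 0.14 (SE, adjusted p = 0.0057 by limma) and 0.74 ± 0.14 (SE, adjusted p = 0.001 by limma). The gene Gm17622 shares 388 bases with Polk on the other strand, and the strand setting is not known. At 4 h Gm17622 was at 0, 6.07, 12.6, 0 and 4.44 FPKM with doxorubicin, against 0, 5.86, 0, 0 and 0 FPKM with vehicle. At 24 h Gm17622 was at 0, 11.3, 8.56, 0 and 0 FPKM with doxorubicin, against 0, 0, 0, 3.97 and 1.32 FPKM with vehicle. The part of Gm17622 reads in the Polk level was not tested.

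Rrm2b, the p53-inducible subunit of ribonucleotide reductase, and Ercc5, the excision repair nuclease XPG, passed with doxorubicin at 24 h. At 4 h Rrm2b was at 3.29, 3.01, 3.78, 2.37 and 2.72 FPKM with doxorubicin, 2.93, 2.96, 3.7, 3.58 and 4.81 FPKM with doxorubicin and AMH and 4.08, 3.51, 3.34, 3.34 and 3.57 FPKM with AMH alone, against 2.36, 2.74, 2.74, 2.3 and 2.97 FPKM with vehicle. At 24 h Rrm2b was at 3.6, 4.36, 3.42, 3.06 and 3.91 FPKM with doxorubicin, 4.26, 4.06, 4.7, 2.98 and 3.77 FPKM with doxorubicin and AMH and 3.7, 3.41, 1.76, 3.11 and 3.38 FPKM with AMH alone, against 2.4, 2.04, 3.42, 1.77 and 2.51 FPKM with vehicle. The doxorubicin and vehicle libraries of Rrm2b overlapped (log2 change 0.46 ± 0.13 SE, adjusted p = 0.017 by limma), and the pseudogene Gm3362, with a median of 143 FPKM, shares 466 bases with it. At 4 h Ercc5 was at 7.63, 9.62, 7.84, 5.74 and 9.0 FPKM with doxorubicin, 7.47, 8.79, 7.61, 6.7 and 7.53 FPKM with doxorubicin and AMH and 6.51, 7.14, 7.52, 7.77 and 6.76 FPKM with AMH alone, against 5.05, 4.76, 6.42, 5.74 and 5.93 FPKM with vehicle. At 24 h Ercc5 was at 7.02, 9.02, 8.46, 9.44 and 7.35 FPKM with doxorubicin, 7.72, 7.71, 9.88, 7.69 and 8.23 FPKM with doxorubicin and AMH and 7.08, 6.24, 4.33, 5.65 and 6.1 FPKM with AMH alone, against 5.24, 5.22, 6.39, 6.52 and 7.81 FPKM with vehicle. The 24 h call of Ercc5 was lost under 10 alternatives, and its libraries overlapped (log2 change 0.36 ± 0.11 SE, adjusted p = 0.027 by limma). Xpc and Ddb2, which recognise damage for excision repair, had log2 changes of 0.38 ± 0.15 (SE, adjusted p = 0.072 by limma) and 0.38 ± 0.14 (SE, adjusted p = 0.058 by limma) at 24 h and did not pass.

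Zfp365, whose human counterpart helps stalled replication forks recover, was low in vehicle and rose at both times. At 4 h Zfp365 was at 4.35, 6.63, 4.18, 1.64 and 5.83 FPKM with doxorubicin, 3.59, 3.31, 1.29, 2.11 and 2.83 FPKM with doxorubicin and AMH and 0.527, 1.17, 0.759, 1.03 and 1.04 FPKM with AMH alone, against 1.23, 1.57, 0.68, 1.1 and 1.11 FPKM with vehicle. At 24 h Zfp365 was at 1.08, 3.01, 2.83, 2.4 and 2.69 FPKM with doxorubicin, 1.13, 1.23, 2.6, 2.74 and 1.61 FPKM with doxorubicin and AMH and 0.678, 0.995, 0.69, 0.55 and 1.16 FPKM with AMH alone, against 0.26, 0.55, 0.787, 0.755 and 0.48 FPKM with vehicle. No doxorubicin library overlapped vehicle at either time. The log2 changes with doxorubicin were 1.30 ± 0.22 (SE, adjusted p = 0.0011 by limma) and 1.09 ± 0.22 (SE, adjusted p = 0.0017 by limma), which understate a change from such low levels.

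The last group, Gtse1, Psrc1 and Ckap2, encodes microtubule-binding proteins that are also made in dividing cells. They had the largest 4 h changes of the 34 on the log2(FPKM + 1) scale, while by ratio of means Gdf15 was first, at 10.8 times vehicle. At 4 h Gtse1 was at 13.5, 19.9, 10.8, 6.93 and 9.52 FPKM with doxorubicin, 8.95, 5.45, 1.38, 4.14 and 3.21 FPKM with doxorubicin and AMH and 0.28, 0.45, 3.12, 0.824 and 1.33 FPKM with AMH alone, against 3.14, 2.51, 1.23, 0.675 and 1.95 FPKM with vehicle. At 4 h Psrc1 was at 8.79, 14.6, 10.9, 6.46 and 5.53 FPKM with doxorubicin, 5.94, 5.06, 3.21, 3.68 and 2.22 FPKM with doxorubicin and AMH and 0.832, 0.702, 4.18, 0.90 and 1.96 FPKM with AMH alone, against 1.4, 1.67, 0.486, 0.236 and 1.45 FPKM with vehicle. At 4 h Ckap2 was at 21.7, 31.5, 17.8, 9.47 and 13.5 FPKM with doxorubicin, 10.8, 8.61, 1.77, 3.5 and 2.82 FPKM with doxorubicin and AMH and 1.01, 1.39, 8.19, 1.19 and 4.12 FPKM with AMH alone, against 4.11, 4.58, 1.42, 1.22 and 3.68 FPKM with vehicle. Every doxorubicin library was above every vehicle library for all 3, and library 2 was the highest. With doxorubicin the log2 changes were 2.32 ± 0.39 (SE, adjusted p = 0.0011 by limma) for Psrc1, 2.17 ± 0.48 (SE, adjusted p = 0.024 by limma) for Gtse1 and 2.30 ± 0.55 (SE, adjusted p = 0.042 by limma) for Ckap2. The Ckap2 call was lost under 15 of the alternatives, among them the replicate block, voom, a pseudocount of 0.1 and leaving out any vehicle library. The Gtse1 call was lost under 7.

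The later time differed between these genes. At 24 h Gtse1 was at 5.25, 7.17, 11, 5.16 and 3.91 FPKM with doxorubicin, 1.56, 1.77, 4.92, 4.28 and 2.21 FPKM with doxorubicin and AMH and 0.919, 0.888, 13.4, 4.51 and 3.19 FPKM with AMH alone, against 1.69, 8.82, 1.77, 14.4 and 2.3 FPKM with vehicle. At 24 h Psrc1 was at 9.64, 12, 20.1, 10.4 and 3.66 FPKM with doxorubicin, 2.56, 2.6, 7.94, 3.49 and 5.14 FPKM with doxorubicin and AMH and 0.539, 1.09, 6.42, 4.82 and 2.89 FPKM with AMH alone, against 0.986, 3.3, 3.35, 4.02 and 3.22 FPKM with vehicle. At 24 h Ckap2 was at 15, 15, 28.3, 11.7 and 5.51 FPKM with doxorubicin, 2.85, 1.77, 5.42, 7.13 and 2.77 FPKM with doxorubicin and AMH and 1.16, 1.01, 20.2, 13.2 and 7.2 FPKM with AMH alone, against 3.77, 14.2, 6.59, 18.9 and 6.87 FPKM with vehicle. Vehicle reached the doxorubicin range for Gtse1 and Ckap2, mainly in libraries 2 and 4, and 4 of 5 doxorubicin libraries stayed above vehicle for Psrc1. At 24 h Psrc1 passed (log2 change 1.52 ± 0.39 SE, adjusted p = 0.01 by limma), while Gtse1 had a log2 change of 0.47 ± 0.48 (SE, adjusted p = 0.49 by limma) and Ckap2 of 0.57 ± 0.55 (SE, adjusted p = 0.46 by limma).

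A list of 20 mitosis genes was set beside them. Its mean log2(FPKM + 1) was 3.53, 3.47, 3.08, 3.68 and 2.03 with doxorubicin, against 2.60, 2.61, 1.22, 0.88 and 2.34 with vehicle at 4 h. None of the 20 passed at 4 h, with a median log2 change of 1.20, or at 24 h, with a median of -0.62. The doxorubicin and vehicle libraries overlapped in this score in library 5 of doxorubicin. Mitosis genes were higher beside the 3 members at 4 h by these scores, and their part in the result was not tested. At 24 h the list was lower with doxorubicin on average, at 2.46 ± 0.75 against 3.07 ± 1.14 with vehicle (SD, n = 5), while Psrc1 was higher.

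**Figure D3:**
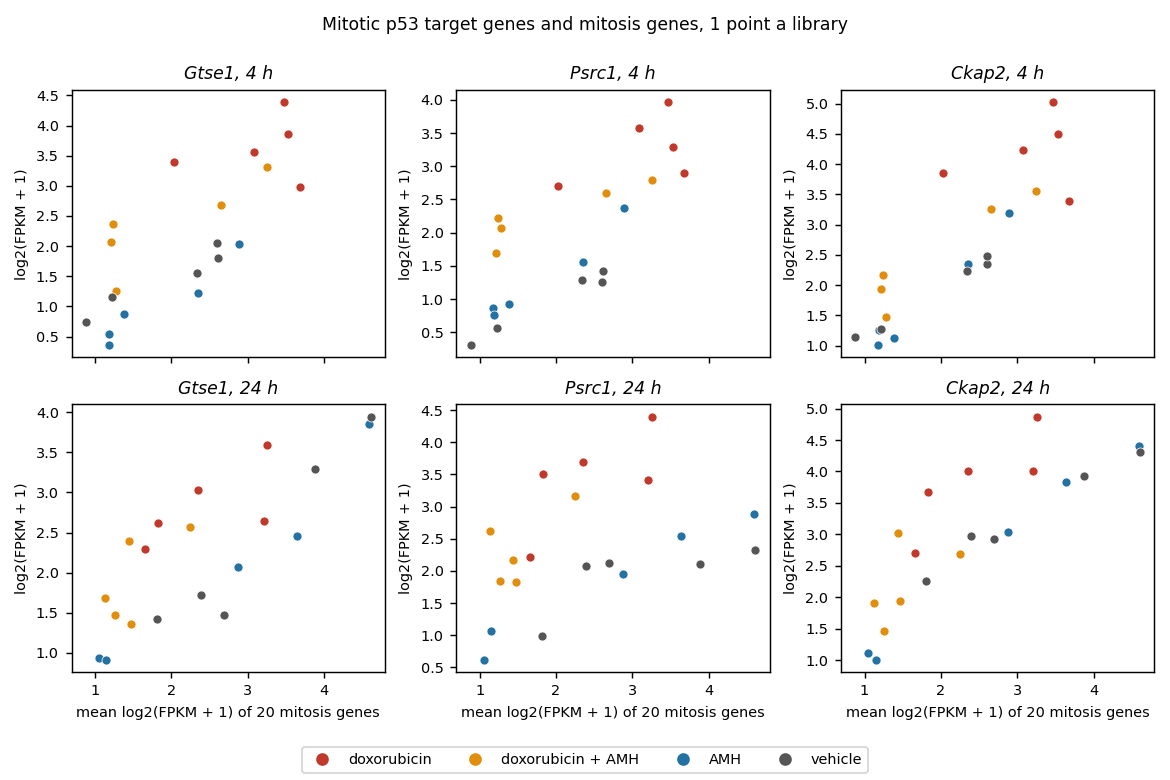
Each point is 1 library: the horizontal axis is the mean log2(FPKM + 1) of 20 mitosis genes and the vertical axis the log2(FPKM + 1) of Gtse1, Psrc1 or Ckap2, at 4 h (upper row) and 24 h (lower row), coloured by treatment. Doxorubicin libraries at 4 h lie above the vehicle points in all 3 genes, and the list's group means were 3.16 with doxorubicin and 1.93 with vehicle.

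The genes that rose shared their high and low libraries. Of the 15 that rose at 4 h, 14 had their lowest doxorubicin value in library 4 and 12 their highest in library 2. Library 4 also had the highest ovary-marker score of the 4 h libraries, 3.70 against 1.37 to 1.69 in the others, and an oviduct score of 2.67. Of the 18 that rose at 24 h, 10 were lowest in library 1 and 7 in library 5, and 9 were highest in library 3 and 8 in library 2. Library 5 had an ovary score of 3.67 and an oviduct score of 2.60, and library 1 had 1.39 and 0.67. Of the highest libraries at 24 h, library 3 had 2.18 and 2.85, and library 2 had 1.49 and 0.60. At 4 h library 2, the highest for most genes, had 1.37 and 0.61 and is among the high-oestrogen libraries. The part of ovarian and oviduct tissue and of oestrogen in these levels was not tested. Without the high-oviduct libraries 11 members rose at 4 h, and 15 rose and 1 fell at 24 h, where 0.234% and 12.0% of all genes passed.

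With AMH added to doxorubicin, none of the 34 genes passed against doxorubicin alone by limma at either time, where 0.00616% of all genes passed at 4 h and 0.333% at 24 h. By direction, 28 of 34 were lower with both agents at 4 h and 29 at 24 h. By voom on the rebuilt reads none passed either, where 0.00616% of all genes passed at 4 h and 0.234% at 24 h. The median log2 change was -0.39 at 4 h and -0.33 at 24 h, against 0.01 and -0.01 over all genes. At an unadjusted p under 0.05, 13 were lower and none higher at 4 h, and 11 were lower and 1, Trp53, higher at 24 h. Of all genes 3.32% were lower and 3.60% higher at that level at 4 h, and 5.97% and 6.46% at 24 h. These comparisons share the doxorubicin libraries with those above.

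The differences named next are those of Sesn2 and Trp53inp1, then of the feedback and mitotic genes. Sesn2 was at 7.04 ± 1.49 FPKM with both agents and 14.9 ± 5.56 FPKM with doxorubicin at 4 h (SD, n = 5), and its log2 change of -0.92 had a 95% interval from -1.40 to -0.43 (limma adjusted p = 0.46). Its 4 h libraries overlapped through doxorubicin library 4. Trp53inp1 at 24 h was at 22.9 ± 3.83 FPKM with both agents and 42.9 ± 10.3 FPKM with doxorubicin (SD, n = 5), with a change of -0.86 (interval -1.31 to -0.40, adjusted p = 0.09).

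For Mdm2 the interval ran from -0.70 to -0.10 at 4 h and from -0.56 to 0.03 at 24 h. For Ccng1 it ran from -0.93 to -0.01 and from -1.09 to -0.17. The 95% intervals are made gene by gene, without adjustment for the number of genes, and none of the 34 passed. Ckap2 changed by -1.72 at 4 h (interval -2.84 to -0.60) and by -1.64 at 24 h (-2.76 to -0.52). The mitosis list had median changes of -1.21 and -0.93 in these comparisons, with none of 20 called, and its part was not tested. Ephx1 differed little at 4 h, by 0.02 (interval -0.40 to 0.44), and Trp53 by 0.00 (-0.23 to 0.23).

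**Figure D4:**
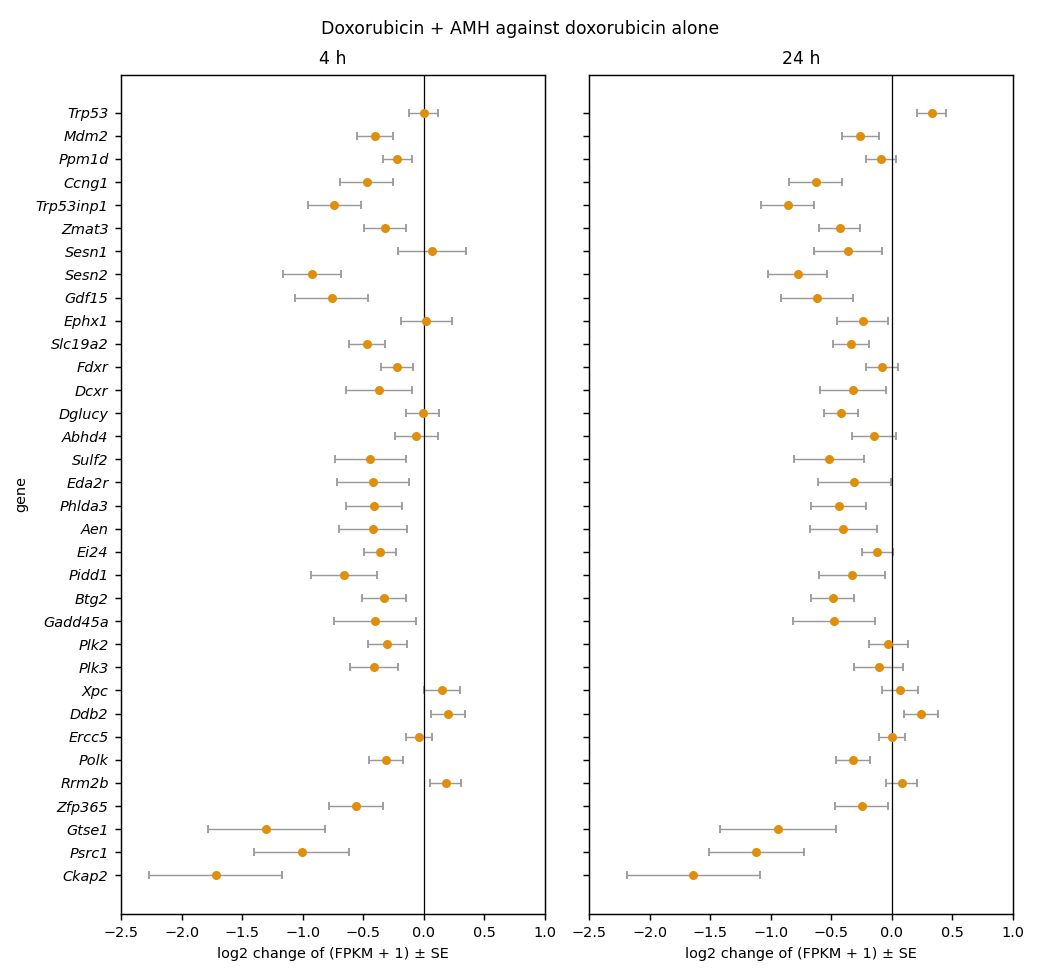
Limma log2 change of (FPKM + 1) with its SE (horizontal axis) of each of the 34 genes for doxorubicin with AMH against doxorubicin alone, at 4 h (left) and 24 h (right). Points left of 0 are lower with AMH added, 28 of 34 at 4 h and 29 at 24 h, and none passed an adjusted p of 0.05.

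With array weights 16 members fell and Trp53 rose at 24 h, where 12.8% of all genes passed, and at 4 h none passed. Leaving out doxorubicin library 4 at 4 h gave 1 call, leaving out library 5 at 24 h gave 3, and leaving out library 4 of doxorubicin with AMH at 24 h gave 1.

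Against vehicle, uteri given both agents still had raised p53 targets. At 4 h 4 rose, Ccng1, Trp53inp1, Ephx1 and Slc19a2, where 0.216% of all genes rose, and 15 had libraries apart from vehicle (3.86% of all genes). At 24 h 15 rose, where 15.7% of all genes rose, and 7 were apart (4.20%). The 24 h genes were Mdm2, Ccng1, Ephx1, Eda2r, Phlda3, Polk, Xpc, Ddb2, Rrm2b, Ppm1d, Slc19a2, Ercc5, Zfp365, Dglucy and Abhd4. The Mdm2 call was lost under 13 alternatives, among them the replicate block, array weights and no filter. In the same 24 h comparison 34.3% of all genes passed in either direction. Smooth muscle markers fell in 9 of 10, the mitosis list in 14 of 20 and oestrogen-responsive genes in 13 of 27 tested (1 rose). Stroma markers fell in 4 of 8 and endothelial markers rose in 4 of 6. Their part in the result was not tested. Xpc and Ddb2 passed here, and with doxorubicin alone both passed by voom and with array weights, though not in the fit reported here. The difference of Xpc from doxorubicin alone was 0.07 ± 0.15 (SE, limma adjusted p = 0.89), and its call with both agents was lost under 7 alternatives. Ddb2 was at 7.29 ± 1.95 FPKM with both agents and 4.39 ± 1.26 FPKM with vehicle (SD, n = 5), a log2 change of 0.62 ± 0.14 (SE, adjusted p = 0.0025 by limma). Its difference from doxorubicin alone, 0.24 ± 0.14, did not pass (limma adjusted p = 0.51). The gene Acp2 shares 2527 bases with Ddb2 on the other strand, and the strand setting is not known. At 24 h Acp2 was at 15.7, 14.5, 15.5, 12.7 and 13.4 FPKM with both agents. With vehicle Acp2 was at 9.88, 9.05, 13.4, 8.49 and 13.4 FPKM. The part of Acp2 reads in the Ddb2 level was not tested.

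Of the 18 genes raised at 24 h by doxorubicin alone, 5 did not pass with both agents, Sesn1, Sesn2, Gdf15, Trp53inp1 and Psrc1, in comparisons that share the vehicle libraries. Sesn1 and Trp53inp1 did pass with both agents by voom and with array weights, where 35.2% and 52.7% of all genes passed. The log2 change with both agents was 0.62 ± 0.28 for Sesn1, 0.39 ± 0.24 for Sesn2, 0.38 ± 0.30 for Gdf15, 0.48 ± 0.22 for Trp53inp1 and 0.40 ± 0.39 for Psrc1 (SE). The 4 h count was 1 without the high-oviduct libraries, 12 without the high-oestrogen ones and 18 with array weights (17 rose and Plk3 fell). Of all genes 0.0863%, 3.67% and 14.6% passed in these fits. The 4 h count was 1 or 2 when any library but number 3 of doxorubicin with AMH was left out. In these fits between 0.0986% and 0.388% of all genes passed. At 24 h the count was 6 with the compared groups alone (6.28% of all genes) and 10 without library 3 of doxorubicin with AMH (27.8%). Without the high-oestrogen libraries it was 2 (0.789%), Ephx1 and Gdf15, of which Gdf15 had not passed with all libraries.

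AMH alone changed 12 of the 34 genes at 4 h, 7 upward and 5 downward, where 9.13% of all genes rose and 10.9% fell. Sesn1, Trp53inp1, Ephx1, Xpc, Ppm1d, Ercc5 and Abhd4 rose. Trp53, Zmat3, Plk3, Pidd1 and Sulf2 fell. The Ercc5 call was lost under 11 alternatives, among them no filter, the replicate block and leaving out any AMH library. The median of the 34 was 0.08, against 0.01 over all genes. In 10 members AMH libraries were all above vehicle (11.3% of all genes) and in 5 all below (13.0%).

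Sesn1 averaged 26.9 ± 1.41 FPKM with AMH and 13.9 ± 1.81 FPKM with vehicle (SD, n = 5), a log2 change of 0.91 ± 0.28 (SE, adjusted p = 0.023 by limma). Trp53inp1 averaged 17.6 ± 2.07 FPKM with AMH and 8.73 ± 1.33 FPKM with vehicle (log2 change 0.94 ± 0.22 SE, adjusted p = 0.0069 by limma). In neither gene did an AMH library overlap vehicle. Trp53 was at 30.4 ± 2.37 FPKM with AMH and 42.2 ± 2.00 FPKM with vehicle (log2 change -0.46 ± 0.12 SE, adjusted p = 0.008 by limma), and again the groups were apart.

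Pidd1 and Sulf2 had the largest falls on the log2 scale, and their libraries are given because of that, chosen after the values were seen. Pidd1 was at 0.691, 0.664, 0.852, 0.988 and 1.22 FPKM with AMH, against 2.69, 2.87, 2.21, 2.30 and 3.25 FPKM with vehicle (log2 change -0.96 ± 0.27 SE, adjusted p = 0.014 by limma). Sulf2 was at 12.6, 13.4, 10.3, 6.77 and 7.84 FPKM with AMH, against 29.2, 27.4, 15.6, 30.3 and 21.4 FPKM with vehicle (log2 change -1.21 ± 0.29 SE, adjusted p = 0.0071 by limma). Ncoa3 shares 154 bases with Sulf2 on the other strand. Mesothelial markers were also lower with AMH at 4 h: 2 of 4 (Lrrn4 and Upk3b) fell, and the mean score was 2.63 ± 0.70 with AMH and 3.69 ± 0.59 with vehicle (SD, n = 5). Oestrogen-responsive genes were apart as well, with a score of 2.99 to 3.37 with AMH and 3.38 to 4.09 with vehicle, and of 27 tested 3 fell and 1 rose. Of other cell type lists, 2 of 10 smooth muscle genes (Cnn1 and Actg2) and 2 of 8 stroma genes (Col1a1 and Col1a2) fell, and 1 of 6 endothelial genes (Vwf) rose. The part of these genes and tissues in the results was not tested. Mdm2, Ccng1, Sesn2, Gdf15, Phlda3, Slc19a2 and Zfp365 did not pass with AMH alone, with log2 changes from -0.35 to 0.21.

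**Figure D5:**
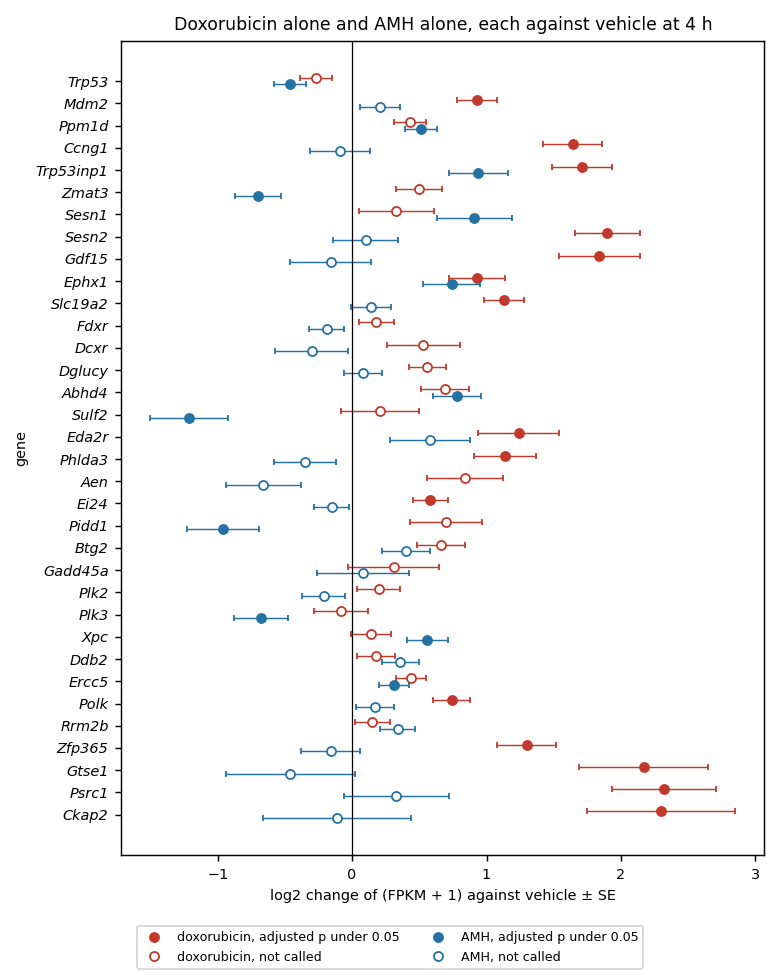
Log2 change of (FPKM + 1) against vehicle at 4 h with its SE (horizontal axis) of each of the 34 genes for doxorubicin alone (red) and AMH alone (blue), filled where limma adjusted p was under 0.05. Both comparisons use the same 5 vehicle libraries, and Ephx1 and Trp53inp1 are filled on the right in both.

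At 24 h none of the 34 passed with AMH alone by limma, where 0.462% of all genes passed, and none by voom, where 0.924% did. In all 7 had an unadjusted p under 0.05, 4 higher and 3 lower, where 8.33% of all genes were higher and 10.5% lower. Without AMH library 3 the count was 3, without vehicle library 3 it was 4, and without vehicle library 5 it was 1. With array weights it was 6, where 25.2% of all genes passed.

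Whether AMH altered the response to doxorubicin was tested as an interaction, the change with both agents against AMH alone minus the change with doxorubicin against vehicle. No gene of the 16226 (0%) passed at either time by limma or by voom. At an unadjusted p under 0.05, 14 members were lower and 1 higher at 4 h, where 6.35% of all genes were lower and 8.17% higher. At 24 h 3 were lower and 1 higher, where 1.77% of all genes were lower and 2.39% higher. Trp53inp1 had the smallest p at 4 h, with an interaction of -1.68 ± 0.32 (SE, adjusted p = 0.10), then Ppm1d with -0.73 ± 0.17 (adjusted p = 0.13). For both genes AMH alone was above vehicle, and this value enters the interaction. Fitted on the 4 groups of 4 h alone 8 members passed, where 7.65% of all genes did, and with array weights 11, where 10.3% did. Leaving out 1 library gave at most 1 call at 4 h (without doxorubicin library 4, where 0.00616% of all genes passed).

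The doxorubicin response was also compared between times. No member passed by limma, where 0.0123% of all genes did, or by voom, where 0% did. By limma 5 members had an unadjusted p under 0.05. Of all genes 3.78% were higher at 24 h than at 4 h at that level and 5.95% lower. Ephx1 and Dglucy were the 2 with a larger change at 24 h, and Sesn2, Gtse1 and Ckap2 the 3 with a smaller one. Array weights gave 3 calls, Ephx1, Sesn1 and Dglucy, where 6.55% of all genes passed.

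Other p53 genes were read from lists for comparison. Of 23 tested regulators and damage kinases of p53, none passed with doxorubicin at 4 h, with a median log2 change of 0.02. At 24 h 2 rose, Mdm4, an inhibitor of p53 (0.47 ± 0.16, adjusted p = 0.041), and Sirt1, a deacetylase of p53 (0.30 ± 0.08, adjusted p = 0.014), and 1 fell, Usp7, which removes ubiquitin from p53 and Mdm2 (-0.36 ± 0.09, adjusted p = 0.0098, all limma with SE), where 8.44% of all genes rose and 9.95% fell. Of 12 arrest and apoptosis targets, 6 rose at 4 h and 4 at 24 h, where 0.388% and 8.44% of all genes rose. Cdkn1a, which encodes p21, averaged 57.9 ± 30.3 FPKM with doxorubicin and 3.92 ± 1.25 FPKM with vehicle at 4 h (SD, n = 5). Of 40 tested further reported targets, 2 rose at 4 h (Susd6 and Rap2b), where 0.388% of all genes rose. At 24 h 8 rose and 1 fell, where 8.44% of all genes rose and 9.95% fell. The medians were 0.11 at 4 h and 0.09 at 24 h.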

How the data were processed

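RNA of 40 mouse uterus libraries was sequenced. The deposited table holds FPKM per gene and library, made by the authors on build mm10 per the submitters' processing notes. No source used here names the aligner, counter, annotation release or strand setting. FPKM values were whole multiples of 1 read in 100% of low values (tolerance 0.01 read), which gave the relative depth, and 0 columns of values were left unmapped. Genes with 1 FPKM or more in at least 5 libraries (16226) entered limma 3.58.1 (R 4.3.3) on the log2(FPKM + 1) scale, with 8 group means, a mean-variance trend, 32 residual degrees of freedom and Benjamini-Hochberg adjustment in each of 11 comparisons at 0.05. Fold changes on this scale understate those of low genes. The fit was tested on simulated data. Alternatives were another pseudocount (0.1), no filter or one at 5 FPKM, median-of-ratios scaling, the compared groups alone, array weights, a replicate block, voom on the rebuilt reads, and libraries left out. Values in every library are given for Trp53, Mdm2, Ppm1d and each member called with doxorubicin, in the comparison of doxorubicin with AMH against doxorubicin, or in the interaction. Members and lists were chosen with earlier results of these data known. Promoters came from RefSeq (GRCm38.p6). Figures used matplotlib 3.10.9. No replicate pair of 1 group was alike within sampling noise.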

Additional observations from a re-analysis of the deposited data

Results flagged for a closer look

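In 16 of 272 groups of 5 libraries (5.88%), 1 library stood apart from the other 4 by more than Dixon's critical value of 0.71, which chance gives in about 1 group in 20. With doxorubicin these were Dcxr at 168 FPKM in library 3 at 4 h, and at 24 h Plk2 at 11.2 FPKM in library 3 and Abhd4 at 31.0 FPKM in library 5. With doxorubicin and AMH they were Sesn2 at 4.38 FPKM in library 3 and Dcxr at 129 FPKM in library 5 at 4 h, and at 24 h Trp53inp1 at 29.6 FPKM and Ercc5 at 9.88 FPKM in library 3 and Aen at 17.6 FPKM in library 4. With AMH alone, all at 24 h, they were Sesn2 at 4.97 FPKM in library 2, Zmat3 at 3.01 FPKM in library 1, and Gtse1 at 13.4 FPKM and Plk3 at 4.00 FPKM in library 3. With vehicle they were Sesn1 at 17.0 FPKM and Eda2r at 7.25 FPKM in library 5 and Gdf15 at 0.206 FPKM in library 3 at 4 h, and Psrc1 at 0.986 FPKM in library 1 at 24 h.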

How the results depend on the processing

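Of 65 gene calls followed, none reversed, 19 kept their call under every alternative other than leaving out a library, 41 under every left-out library and 17 under all. Counts of members called moved by over 1.5 times as follows, and the cause was not tested. Fitting only the compared groups gave 5 for doxorubicin against vehicle at 4 h (0.0616% of all genes) and 3 at 24 h (0.154%). It gave 14 for both agents against vehicle at 4 h (4.72%) and 6 at 24 h (6.28%), and 8 for the 4 h interaction (7.65%). Array weights gave 17 for both agents against doxorubicin at 24 h (12.8% of all genes) and 18 for both agents against vehicle at 4 h (14.6%). They gave 6 for AMH against vehicle at 24 h (25.2%) and 3 for the time difference (6.55%). For the 4 h and 24 h interactions they gave 11 and 1 (10.3% and 0.425%). Without the high-oestrogen libraries 10 passed for doxorubicin against vehicle at 24 h (0.382% of all genes). For both agents against vehicle 12 then passed at 4 h (3.67%) and 2 at 24 h (0.789%). For both agents against vehicle at 4 h, no filter gave 1 (0.134% of all genes) and leaving out the high-oviduct libraries gave 1 (0.0863%). Leaving out 1 library at a time gave 9 to 18 and 14 to 22 calls for doxorubicin against vehicle at 4 h and 24 h, 0 to 1 and 0 to 3 for both agents against doxorubicin, 1 to 5 and 10 to 17 for both agents against vehicle, 9 to 12 and 0 to 4 for AMH against vehicle, 0 to 0 for the time difference, and 0 to 1 and 0 to 0 for the interactions. Libraries with 1 replicate number were compared for deviating together, and no comparison had all 5 pairs above a correlation of 0.1. For doxorubicin against vehicle at 24 h 1 of 5 pairs was above it, with correlations from -0.25 to 0.14. For both agents against vehicle at 24 h 3 of 5 were, with correlations from -0.13 to 0.39. Whether the numbers mark pairs of libraries was not tested. A replicate block gave 14 and 19 for doxorubicin against vehicle at 4 h and 24 h (0.468% and 18.8% of all genes). It gave 0 and 0 for both agents against doxorubicin (0.00616% and 0.320%). It gave 3 and 14 for both agents against vehicle (0.370% and 34.5%), and 11 and 0 for AMH against vehicle (20.2% and 0.629%). The reads per library limit what can be seen of low genes.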
